A study of Mus musculus with 12 samples.

Results

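The Cyp4a genes encode cytochrome P450 enzymes of the endoplasmic reticulum that hydroxylate fatty acids at the omega carbon, the end of the chain far from the acid group. Of the 34986 genes in the authors' table, 6 were taken by name: Cyp4a10, Cyp4a12a, Cyp4a12b, Cyp4a14, Cyp4a31 and Cyp4a32. Of these 6, Cyp4a10, Cyp4a14, Cyp4a31 and Cyp4a32 reached 1 normalized count in 6 or more libraries, as 19006 genes did, and could be tested with them. Cyp4a12a and Cyp4a12b were too low for that filter and are described on their own. In all, 8 rows of the table carry a name that starts with Cyp4a, and the other 2, Cyp4a29 and Cyp4a30b, were listed at 0 in every library.

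Liver RNA came from 12 female C57BL/6 mice aged 16 weeks. In the VPA_OCA group, 6 mice received valproic acid (VPA), a drug against epilepsy with known liver toxicity, together with obeticholic acid (OCA), an agonist of the bile acid receptor FXR. In the VPA group, 6 mice received VPA without OCA. All 12 mice thus carried VPA, mice free of VPA were not analysed here, and the labels used here state no dose, duration or vehicle. The series concerns the part FXR plays in VPA liver toxicity, so the comparison asks how Cyp4a transcripts differed once the FXR agonist was added.

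As background, omega-hydroxylation is the opening step of a minor route of fatty acid breakdown. Alcohol and aldehyde dehydrogenases then turn the hydroxylated acid into a dicarboxylic acid, which is shortened in peroxisomes. In mouse liver, Cyp4a10 and Cyp4a14 are classical targets of the fatty acid receptor PPAR-alpha and are induced by fasting and by fibrate drugs. The Cyp4a12 enzymes of the mouse also hydroxylate arachidonic acid and are known to be expressed more in males. Cyp4a31 and Cyp4a32 are close paralogs of Cyp4a10 and are less studied.

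All 6 genes lie within 322557 bases of chromosome 4 (GRCm38 coordinates of the authors' table). From low to high coordinate they are Cyp4a12a (chr4:115299046-115332815, plus strand), Cyp4a12b (chr4:115411624-115439034, plus strand), Cyp4a14 (chr4:115486200-115496142, minus strand), Cyp4a10 (chr4:115518264-115533649, plus strand), Cyp4a31 (chr4:115563649-115579015, plus strand) and Cyp4a32 (chr4:115600969-115621602, plus strand). The coding sequences, taken from GENCODE M21 on the same build, fall into 3 kinds. Cyp4a10, Cyp4a31 and Cyp4a32 are 96.0% to 97.2% identical to each other, Cyp4a12a and Cyp4a12b are 98.5% identical, and Cyp4a14 is at most 75.9% identical to any of the other 5.

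This likeness decides how far a short read can be assigned to a single gene, so the stretch of 90 coding bases within 1 exon at which the 4 tested genes differ in the most positions (44, against a median of 23 over 500 such stretches) is shown. It lies in exon 2 of each gene, at chr4:115519643-115519732 (plus strand) for Cyp4a10, chr4:115565023-115565112 (plus strand) for Cyp4a31, chr4:115602273-115602362 (plus strand) for Cyp4a32 and chr4:115494928-115495017 (minus strand) for Cyp4a14. Capitals mark bases that differ from Cyp4a10, of which Cyp4a31 has 3, Cyp4a32 has 11 and Cyp4a14 has 39:
Cyp4a10: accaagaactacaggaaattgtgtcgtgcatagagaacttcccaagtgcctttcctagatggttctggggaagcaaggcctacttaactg
Cyp4a31: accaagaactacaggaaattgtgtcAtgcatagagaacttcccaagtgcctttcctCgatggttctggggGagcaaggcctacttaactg
Cyp4a32: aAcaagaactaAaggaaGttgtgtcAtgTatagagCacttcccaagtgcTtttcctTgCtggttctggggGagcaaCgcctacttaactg
Cyp4a14: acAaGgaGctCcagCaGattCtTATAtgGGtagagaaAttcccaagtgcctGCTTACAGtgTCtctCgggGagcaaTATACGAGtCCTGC

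The 90 coding bases in which the Cyp4a10 group is most alike are shown beside it, since such bases are found in more than 1 gene. They lie in exon 8, at chr4:115525534-115525623 for Cyp4a10, chr4:115570994-115571083 for Cyp4a31 and chr4:115611253-115611342 for Cyp4a32, all on the plus strand. Cyp4a31 differs from Cyp4a10 at 1 base, in capitals, and Cyp4a32 at 0:
Cyp4a10: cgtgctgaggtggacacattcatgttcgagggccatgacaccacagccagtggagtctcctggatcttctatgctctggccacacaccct
Cyp4a31: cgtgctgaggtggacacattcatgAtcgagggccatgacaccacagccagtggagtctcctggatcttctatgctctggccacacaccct
Cyp4a32: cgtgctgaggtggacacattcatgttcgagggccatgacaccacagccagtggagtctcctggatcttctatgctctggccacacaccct

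The male-biased pair is closer still, and its most divergent 90 coding bases show how little separates the copies. They lie in exon 6, at chr4:115326659-115326748 for Cyp4a12a and chr4:115432912-115433001 for Cyp4a12b, both on the plus strand, and differ at 7 bases, in capitals:
Cyp4a12a: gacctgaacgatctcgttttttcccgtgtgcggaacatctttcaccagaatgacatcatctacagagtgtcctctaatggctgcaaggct
Cyp4a12b: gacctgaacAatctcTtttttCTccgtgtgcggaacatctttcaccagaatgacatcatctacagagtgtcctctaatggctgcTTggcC

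The unit throughout is the normalized count, in which the authors have put the 12 libraries on a common scale. Its totals were 20236900 to 22087711 per library, and the depths estimated from low values were 17879222 to 37766890 reads. Libraries numbered 1 to 3 stood apart from those numbered 4 to 6 in both groups, with 9.09% to 11.7% against 5.84% to 7.51% of the normalized count on mitochondrial genes. The labels name no batch for this split, and Cyp4a results are therefore also given within each set of numbers. VPA replicates 4 and 5 held skeletal muscle transcripts (Acta1 at 164.2 and 24.95 normalized counts, against at most 3.221 in any other library), and VPA replicate 5 also stood apart in sex-biased liver genes. The 6 hepatocyte markers of the marker lists, albumin among them, were present in every library, and their summed count ranged from 2201110 to 3663100 in VPA_OCA livers and from 2498620 to 3578500 in VPA livers.

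Cyp4a14 and Cyp4a31 fell in VPA_OCA livers relative to VPA livers, by 3.09-fold and 2.40-fold. Cyp4a10 and Cyp4a32 had lower means in VPA_OCA livers, but did not pass the test. By limma on log2(normalized count + 1), 2 of the 4 tested members passed downwards at an adjusted p of 0.05, where 0.279% of all 19006 genes did so (53 genes) and 0.721% passed in either direction (137 genes). The log2 fold change was below 0 for all 4, as for 50.1% of all genes tested. In whole liver, fewer cells that express these genes and less RNA per cell cannot be told apart.

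Cyp4a14, a PPAR-alpha-induced fatty acid hydroxylase, had a lowest value of 3490, a median of 8498 and a highest value of 11330 normalized counts over the 6 VPA_OCA livers. Over the 6 VPA livers its lowest value was 10150, its median 25480 and its highest value 31640. The groups overlapped through VPA replicate 4 alone, which held the value of 10150, while 5 of 6 VPA_OCA livers lay below every VPA liver. The means were 7832 ± 2830 normalized counts in VPA_OCA livers and 23930 ± 7297 in VPA livers (SD, n = 6 each). The log2 fold change was -1.63 (SE 0.293, 95% interval -2.25 to -1.0), with an adjusted p of 0.0131 by limma. Without VPA replicate 4 it was -1.86, with an adjusted p of 0.0017 by limma, and without both libraries that held muscle transcripts it was -1.90, with an adjusted p of 0.00482.

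Within the replicate numbers 1 to 3, Cyp4a14 averaged 7769 ± 1984 normalized counts in VPA_OCA livers and 28277 ± 3006 in VPA livers (SD, n = 3 each), and the groups did not overlap. The share of all genes without overlap among 3 libraries a group was not computed. Within numbers 4 to 6 Cyp4a14 averaged 7896 ± 4009 in VPA_OCA livers and 19583 ± 8210 in VPA livers (SD, n = 3 each), and the groups overlapped. The log2 fold changes were -1.89 in numbers 1 to 3 (adjusted p = 0.0009 by limma) and -1.36 in numbers 4 to 6 (adjusted p = 0.279 by limma). In numbers 1 to 3 alone, Cyp4a14 and Cyp4a31 were among the 48 genes called lower (0.253% of those tested), and in numbers 4 to 6 alone neither was among the 29 (0.153%), with the direction the same. The difference between these fold changes had an adjusted p of 0.824 by limma.

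Cyp4a31, the paralog that lies next to Cyp4a10, had a lowest value of 157.7, a median of 191.7 and a highest value of 351.7 normalized counts over the VPA_OCA livers. Over the VPA livers its lowest value was 354.8, its median 538.9 and its highest value 671.6. All 6 VPA_OCA livers lay below all 6 VPA livers, which held for 100 of the genes tested (0.526%). The gap was narrow, as VPA_OCA replicate 4 and VPA replicate 4 stood at 351.7 and 354.8. The means were 225 ± 74.2 in VPA_OCA livers and 531 ± 110 in VPA livers (SD, n = 6 each), a log2 fold change of -1.26 (SE 0.193, 95% interval -1.68 to -0.85) with an adjusted p of 0.00441 by limma. Ordered by p, it was gene 10 and Cyp4a14 gene 20 among all genes lower in VPA_OCA livers.

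The groups of Cyp4a31 did not overlap within either set of numbers. The share of all genes for which this holds with 3 libraries a group was not computed. In numbers 1 to 3 it averaged 175 ± 15.3 normalized counts in VPA_OCA livers and 604 ± 68.5 in VPA livers (SD, n = 3 each). In numbers 4 to 6 it averaged 275 ± 77.7 in VPA_OCA livers and 457 ± 95.2 in VPA livers (SD, n = 3 each). The log2 fold changes were -1.78 (adjusted p = 0.000149 by limma) and -0.75 (adjusted p = 0.229 by limma), so the call was not made in numbers 4 to 6 alone. Their difference of 1.03 (SE 0.273) had an unadjusted p of 0.00191 and an adjusted p of 0.366 by limma, in a test that called 2 genes (0.0105%) in all.

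Cyp4a10, the most abundant member by normalized count in VPA_OCA livers and like Cyp4a14 a PPAR-alpha target, had a lowest value of 4392, a median of 12645 and a highest value of 16180 normalized counts over the VPA_OCA livers. Over the VPA livers its lowest value was 8083, its median 17560 and its highest value 25830. The groups overlapped widely: 1 VPA_OCA liver lay below every VPA liver, and 3 VPA livers lay above every VPA_OCA liver. The means were 11504 ± 4353 in VPA_OCA livers and 17749 ± 5997 in VPA livers (SD, n = 6 each). The log2 fold change was -0.66 (SE 0.31, 95% interval -1.32 to 0.00137), with an adjusted p of 0.525 by limma, so a difference between none and 2.49-fold lower lay within the interval. Within numbers 1 to 3 Cyp4a10 averaged 13115 ± 3827 in VPA_OCA livers and 22107 ± 3435 in VPA livers (SD, n = 3 each), without overlap. The log2 fold change there was -0.79, with an adjusted p of 0.177 by limma, and the share of all genes without overlap in these numbers was not computed. Within numbers 4 to 6 Cyp4a10 averaged 9894 ± 4994 in VPA_OCA livers and 13391 ± 4597 in VPA livers (SD, n = 3 each), with a log2 fold change of -0.53 and an adjusted p of 0.697 by limma.

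Cyp4a32, the other close paralog of Cyp4a10, had a lowest value of 171.6, a median of 295.2 and a highest value of 351.5 normalized counts over the VPA_OCA livers. Over the VPA livers its lowest value was 328.4, its median 353.4 and its highest value 419.7. The groups overlapped: 5 VPA_OCA livers lay below every VPA liver, and VPA_OCA replicate 4, at 351.5, lay within the VPA range. The means were 284.5 ± 61.9 in VPA_OCA livers and 362.6 ± 31.7 in VPA livers (SD, n = 6 each). The log2 fold change was -0.38 (SE 0.146, 95% interval -0.69 to -0.0685), with an unadjusted p of 0.02 and an adjusted p of 0.382 by limma. Within the number sets it was -0.29 and -0.47, with adjusted p-values of 0.389 and 0.502 by limma.

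**Figure D1:**
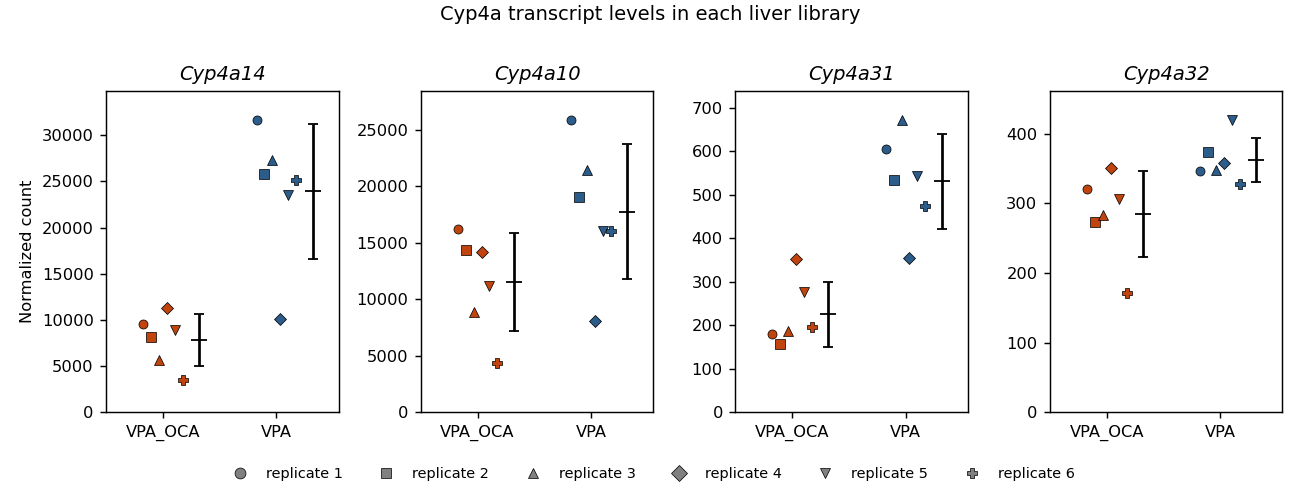
Normalized counts of the 4 tested Cyp4a genes (vertical axes, linear, 1 per gene) in each VPA_OCA library (left) and VPA library (right), with a symbol for each replicate number and, beside the points, the mean and SD of each group (n = 6 each). VPA_OCA libraries sit between 3490 and 11330 for Cyp4a14 and between 157.7 and 351.7 for Cyp4a31, and VPA replicate 4 is the lowest VPA library in Cyp4a14, Cyp4a10 and Cyp4a31.

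The labels do not say whether the replicate numbers pair the libraries. With the number as a block the fit called 210 genes in place of 137. With this block, 81 genes (0.426%) were called lower, among them Cyp4a31 (adjusted p = 0.0113 by limma) and Cyp4a14 (adjusted p = 0.0173 by limma). Cyp4a32 had an adjusted p of 0.186 and Cyp4a10 of 0.316 in that limma fit, so no member changed its call. With a term for numbers 1 to 3 against 4 to 6, limma called 404 genes, 150 of them lower (0.789%). In that fit Cyp4a31 (adjusted p = 0.00138) and Cyp4a14 (adjusted p = 0.00385) were again called, and Cyp4a32 (adjusted p = 0.214) and Cyp4a10 (adjusted p = 0.24) were not. In the authors' deposited table, Cyp4a14 had a log2 ratio of -1.59 (adjusted p = 1.22e-05) and Cyp4a31 of -1.22 (adjusted p = 3.94e-06), while Cyp4a10 at -0.60 (adjusted p = 0.0794) and Cyp4a32 at -0.34 (adjusted p = 0.0939) missed 0.05. Under that threshold the authors' deposited table holds 279 genes lower in VPA_OCA livers, 2.23% of the 12517 it flags as present.

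**Figure D2:**
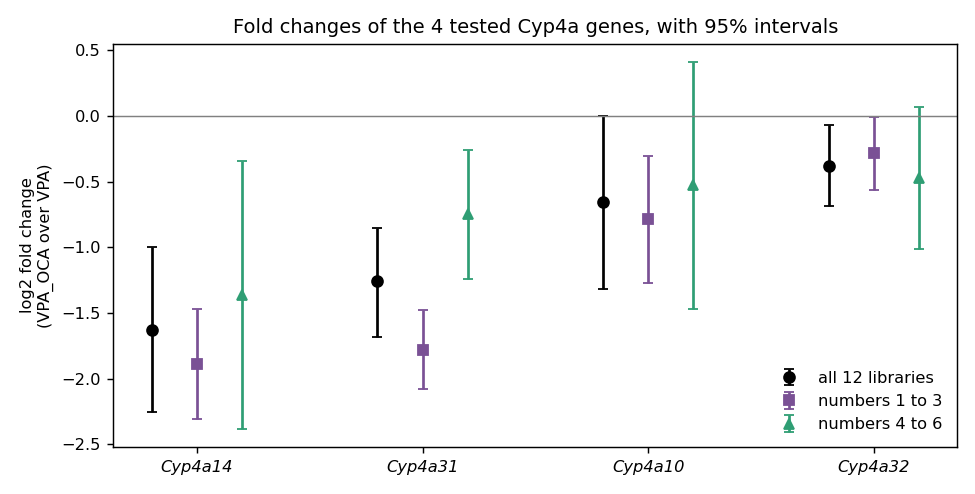
Log2 fold change of VPA_OCA over VPA (vertical axis) for the 4 tested Cyp4a genes, with 95% intervals from limma, over all 12 libraries (circles) and within replicate numbers 1 to 3 (squares) and 4 to 6 (triangles). All 12 estimates lie below 0, and for Cyp4a31 the estimate is -1.78 in numbers 1 to 3 and -0.75 in numbers 4 to 6.

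The balance of the most abundant members was not the same in the 2 groups. Cyp4a14 made up 39.7% ± 3.56 of the summed normalized count of the 6 genes in VPA_OCA livers and 56.1% ± 2.40 in VPA livers (SD, n = 6 each), while Cyp4a10 made up 57.5% ± 4.20 in VPA_OCA livers and 41.6% ± 2.26 in VPA livers. For either share the groups did not overlap. The 2 genes together make up nearly all of the sum, so the shares mirror each other and count as 1 observation. The FPKM of Cyp4a14 divided by that of Cyp4a10 was 0.968 ± 0.154 in VPA_OCA livers and 1.88 ± 0.185 in VPA livers (SD, n = 6 each). FPKM divides the count by transcript length and library size, so that levels of different genes can be set side by side.

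In single libraries that ratio ran from 0.786 to 1.11 in VPA_OCA livers and from 1.70 to 2.17 in VPA livers, so no library of 1 group reached the other. VPA replicate 4, in which both transcripts were low, had a ratio of 1.74, inside the range of the other VPA livers. Within numbers 1 to 3 the ratio was 0.83 ± 0.05 in VPA_OCA livers and 1.78 ± 0.0916 in VPA livers, and within numbers 4 to 6 it was 1.11 ± 0.00546 in VPA_OCA livers and 1.98 ± 0.218 in VPA livers (SD, n = 3 each). The spread of the ratio within a group was thus small beside that of either gene. The ratio was computed with the values of both genes known and was given no test. How many other pairs of genes have a ratio that separates the groups was not computed.

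Summed over the 6 genes, the family stood at 19849 ± 7061 normalized counts in VPA_OCA livers and 42587 ± 13239 in VPA livers (SD, n = 6 each), 0.466 times the VPA level. This was 0.0929% of a VPA_OCA library and 0.198% of a VPA library on average. The groups of the sum overlapped through VPA replicate 4, at 18950, and 5 of 6 VPA livers lay above every VPA_OCA liver. The summed Cyp4a10, Cyp4a31 and Cyp4a32, which does not depend on how reads were split among these paralogs, was 12014 ± 4415 in VPA_OCA livers and 18642 ± 6089 in VPA livers (SD, n = 6 each), 0.645 times the VPA level, with overlap. Cyp4a31 divided by Cyp4a32 was 0.808 ± 0.243 in VPA_OCA livers and 1.47 ± 0.332 in VPA livers by normalized count, and the groups overlapped.

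**Figure D3:**
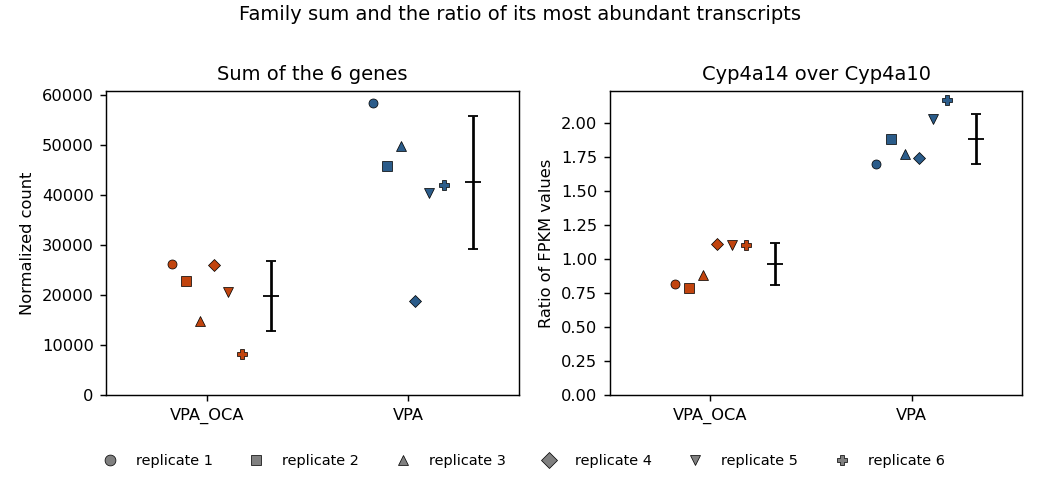
Left, summed normalized count of the 6 Cyp4a genes (vertical axis). Right, FPKM of Cyp4a14 divided by FPKM of Cyp4a10 (vertical axis). VPA_OCA libraries stand left of VPA libraries, symbols mark replicate numbers, and the bars give mean and SD (n = 6 each). The sums overlap through VPA replicate 4, while the ratios run from 0.786 to 1.11 in VPA_OCA libraries and from 1.70 to 2.17 in VPA libraries.

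On the FPKM scale the order of levels in VPA_OCA livers was Cyp4a10 at 258.8 ± 95.5, Cyp4a14 at 244.3 ± 85.3, Cyp4a32 at 11.8 ± 2.49 and Cyp4a31 at 6.50 ± 2.06 (SD, n = 6). In VPA livers it was Cyp4a14 at 742.1 ± 219, Cyp4a10 at 396.8 ± 129, Cyp4a31 at 15.2 ± 2.95 and Cyp4a32 at 15.0 ± 1.60 (SD, n = 6). Cyp4a10 and Cyp4a14 differed by less than their spread in VPA_OCA livers, and so did Cyp4a31 and Cyp4a32 in VPA livers. Among all 34986 genes ordered by mean FPKM, Cyp4a14 stood at rank 449 in VPA_OCA livers and at rank 121 in VPA livers. Cyp4a10 stood at rank 421 in VPA_OCA livers and at rank 266 in VPA livers.

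These FPKM values divide by the mean length of a gene's annotated transcripts, which is 1500 bases for Cyp4a14 and 2080 for Cyp4a10, while their longest transcripts have 2496 and 2109 bases. Computed per longest transcript, Cyp4a14 stood at 146.8 ± 51.3 in VPA_OCA livers and 446 ± 131 in VPA livers (SD, n = 6 each). Cyp4a10 stood at 255.2 ± 94.2 in VPA_OCA livers and 391.4 ± 127 in VPA livers (SD, n = 6 each). The ratio of Cyp4a14 to Cyp4a10 was then 0.590 ± 0.0941 in VPA_OCA livers and 1.15 ± 0.112 in VPA livers. The level of Cyp4a14 relative to Cyp4a10 therefore depends on the length chosen, while the quotient between the groups does not.

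How far members could share reads with other genes was measured on their longest transcripts, as the share of windows that occur without a mismatch in another gene. For Cyp4a14 this was 0.2% of windows of 50 bases and 0% of windows of 75 or 100 bases. For Cyp4a31 it was 21.8%, 13.9% and 8.2% at 50, 75 and 100 bases, for Cyp4a10 it was 30.5%, 19.1% and 12.7%, and for Cyp4a32 it was 46.8%, 30.4% and 20.1%. At 50 bases Cyp4a32 shared 34.8% of its windows with Cyp4a10 and 25.7% with Cyp4a31, and Cyp4a31 shared 15.5% with Cyp4a32 and 12.8% with Cyp4a10. Cyp4a31 windows also occurred in 559 genes outside Cyp4a at 50 bases, in 43 at 75 bases and in 0 at 100 bases, whereas those of the other 5 members occurred in 0. The sources used here state neither the read length nor the treatment of such reads. Some deposited values are not a whole number of reads, and whether shared reads were divided between genes was not tested.

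The value of Cyp4a14 is therefore little exposed to shared reads, and those of Cyp4a31 and Cyp4a32 are uncertain. Cyp4a10 was far higher than both: the FPKM of Cyp4a31 was 2.94% ± 1.59 of that of Cyp4a10 in VPA_OCA livers and 4.06% ± 0.886 in VPA livers (SD, n = 6 each). What part reads from Cyp4a10 have in the counts of Cyp4a31 and Cyp4a32 was not tested. The log2 fold change of Cyp4a10, -0.66, lies between those of Cyp4a31 and Cyp4a32.

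**Figure D4:**
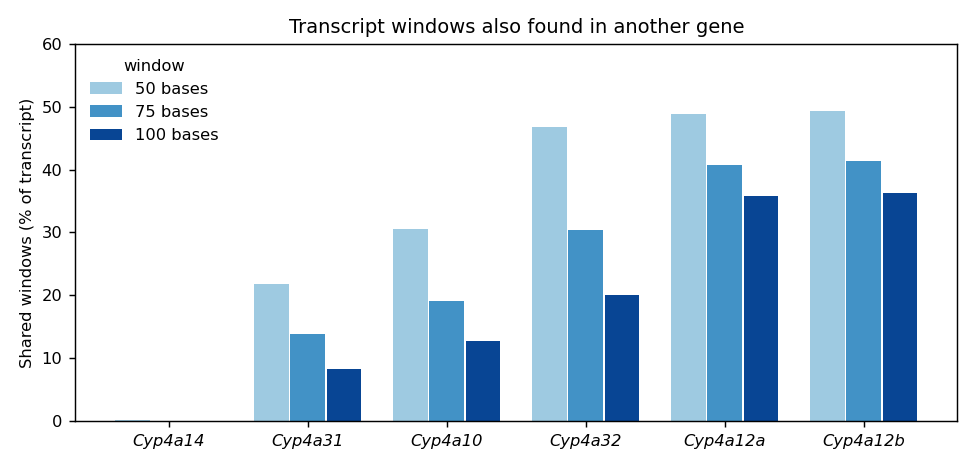
Share of the windows of each gene's longest transcript that also occur in a transcript of another gene (vertical axis, percent), for windows of 50, 75 and 100 bases. Cyp4a14 shares at most 0.2% of its windows, and Cyp4a12a and Cyp4a12b share 48.9% and 49.4% at 50 bases.

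Within a group, Cyp4a10 varied most of the 4 tested genes in VPA_OCA livers, with an SD of 0.696 in log2 units, and 0.577 in VPA livers. Cyp4a14 had an SD of 0.621 in VPA_OCA livers and 0.585 in VPA livers. Cyp4a31 varied less, at 0.436 in VPA_OCA livers and 0.32 in VPA livers, and Cyp4a32 least, at 0.362 in VPA_OCA livers and 0.122 in VPA livers. The lowest libraries were often the same: VPA_OCA replicate 6 held the lowest VPA_OCA value of Cyp4a14, Cyp4a10 and Cyp4a32, and VPA replicate 4 the lowest VPA value of Cyp4a14, Cyp4a10 and Cyp4a31.

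Likeness of pattern was described by the root mean square difference between log2 profiles over the 12 libraries, each centred on its mean, so that 0 is an identical pattern. The members closest to each other were Cyp4a14 and Cyp4a31, at 0.469, followed by Cyp4a10 and Cyp4a32, at 0.488, and Cyp4a10 and Cyp4a14, at 0.516. Cyp4a14 and Cyp4a32 were farthest apart, at 0.764. All these profiles share the same 12 libraries and the same split into groups, and genes outside the family could lie nearer than members. Of 11331 such genes, 2 lay nearer to Cyp4a14 than its closest member did. For Cyp4a31 these were 30 genes, for Cyp4a10 149 and for Cyp4a32 8815.

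Among the 11331 genes compared, those nearest to Cyp4a14 outside the family were the acyl-CoA thioesterase Acot1 (0.435), the secreted phospholipase Pla2g12a (0.461) and Proca1 (0.472). Nearest to Cyp4a31 were Pla2g12a (0.276), the retinol saturase Retsat (0.318) and Aifm3 (0.354). Retsat averaged 5300 ± 924 normalized counts in VPA_OCA livers and 10441 ± 1853 in VPA livers (SD, n = 6 each; adjusted p = 0.00378 by limma), and Pla2g12a 145 ± 29.1 in VPA_OCA livers and 299 ± 74.2 in VPA livers (adjusted p = 0.0208 by limma). Nearest to Cyp4a10 were the acetylcholine receptor subunit Chrna2 (0.304), the small GTPase Rab30 (0.343) and the carboxylesterase Ces1d (0.352), none of which passed the test. Nearest to Cyp4a32 were Cyp4f15 (0.182), a P450 of another Cyp4 subfamily, the amino acid transporter Slc7a2 (0.186) and the methionine adenosyltransferase Mat1a (0.191), none of which passed the test. The profiles include the difference between the groups, so whether a nearest gene passed follows in part from how it was picked. These p-values are therefore no separate support.

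No other gene close to the family on chromosome 4 was called. Within 500000 bases on either side, 18 genes other than the members were tested, and limma called 0 of them, with 1 gene (5.56%) at an unadjusted p under 0.05, as for 9.55% of all genes tested. Their log2 fold changes ran from -0.55 to 0.44 with a median of -0.033. The P450 genes on the 2 sides, Cyp4x1 and Cyp4b1, had log2 fold changes of -0.20 and -0.30 (adjusted p = 0.895 and 0.662 by limma).

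The other genes of the route were read from lists chosen with earlier results of these data known, against a median log2 fold change of -0.0005 over all genes tested. At an unadjusted p under 0.05 stood 1815 of all 19006 genes (9.55%), 1007 of them higher and 808 lower in VPA_OCA livers, and the lists' counts at that p are to be read beside this share. Of 9 tested Cyp4 genes outside the Cyp4a family, limma called 0 and 0 had an unadjusted p under 0.05, while all 9 had a log2 fold change below 0, with a median of -0.22. Cyp4f14, a hydroxylase of fatty acids and leukotrienes, measured 2615 ± 1036 normalized counts in VPA_OCA livers and 3230 ± 1316 in VPA livers (SD, n = 6 each). Of 11 genes that act after the hydroxylase (alcohol and aldehyde dehydrogenases, acyl-CoA synthetases and peroxisomal transporters), limma called 0, 2 had an unadjusted p under 0.05 (18.2%, against 9.55% of all genes), 6 had a log2 fold change below 0, and the median was -0.0072. The fatty aldehyde dehydrogenase Aldh3a2 measured 8750 ± 2042 in VPA_OCA livers and 11368 ± 2118 in VPA livers (SD, n = 6 each; adjusted p = 0.441 by limma), and Adh4 1334 ± 329 in VPA_OCA livers and 853 ± 377 in VPA livers (adjusted p = 0.271 by limma).

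Of 14 genes of peroxisomal beta-oxidation, limma called 0, 2 had an unadjusted p under 0.05 (14.3%, against 9.55% of all genes), 12 had a log2 fold change below 0, and the median was -0.16. Ehhadh, the bifunctional enzyme of that route, measured 8721 ± 717 in VPA_OCA livers and 9664 ± 1354 in VPA livers (SD, n = 6 each; adjusted p = 0.756 by limma). Pex11a, which acts in peroxisome division, measured 1988 ± 568 in VPA_OCA livers and 3075 ± 813 in VPA livers (adjusted p = 0.2 by limma).

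Of 36 PPAR-alpha targets outside Cyp4a, 1 passed downwards and 0 upwards by limma, 12 had an unadjusted p under 0.05 (33.3%, against 9.55% of all genes; all 12 with lower VPA_OCA values), and 33 had a log2 fold change below 0, with a median of -0.21. The gene that fell was Fitm1, which acts in lipid droplet formation, at 66.3 ± 22.2 normalized counts in VPA_OCA livers and 169 ± 51.9 in VPA livers (SD, n = 6 each; log2 fold change -1.33, adjusted p = 0.00925 by limma). Acot1 measured 744 ± 432 in VPA_OCA livers and 1937 ± 847 in VPA livers (log2 fold change -1.47, adjusted p = 0.101 by limma), and the trifunctional protein subunit Hadhb 4445 ± 550 in VPA_OCA livers and 5835 ± 868 in VPA livers (adjusted p = 0.19 by limma).

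Among 20 genes for PPARs, their partners and other regulators, limma called 0, 6 had an unadjusted p under 0.05 (30%, against 9.55% of all genes; 3 in each direction), 16 had a log2 fold change below 0, and the median was -0.15. Ppara, which encodes PPAR-alpha, measured 1801 ± 307 in VPA_OCA livers and 1878 ± 238 in VPA livers (SD, n = 6 each; adjusted p = 0.925 by limma). Nr1h4, which encodes FXR, measured 2250 ± 372 in VPA_OCA livers and 2746 ± 556 in VPA livers (adjusted p = 0.565 by limma), and Nr0b2, the repressor SHP that FXR induces, 849 ± 460 in VPA_OCA livers and 451 ± 167 in VPA livers (adjusted p = 0.57 by limma).

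Of 5 electron donors and partners of P450 enzymes, limma called 0 and 0 had an unadjusted p under 0.05, with 2 log2 fold changes below 0 and a median of 0.039. The reductase Por, which passes electrons to microsomal P450 enzymes, measured 10371 ± 2258 in VPA_OCA livers and 11590 ± 1806 in VPA livers (SD, n = 6 each; adjusted p = 0.812 by limma). Of 12 genes of arachidonate hydroxylation and epoxygenation, limma called 0, 4 had an unadjusted p under 0.05 (33.3%, against 9.55% of all genes; 3 higher and 1 lower), 4 had a log2 fold change below 0, and the median was 0.13. Cyp2c39, which had the smallest p of this list, measured 409 ± 79.2 in VPA_OCA livers and 276 ± 50.5 in VPA livers (adjusted p = 0.136 by limma). The 1 lower gene was the epoxygenase Cyp2c29, at 12590 ± 2033 in VPA_OCA livers and 15595 ± 2120 in VPA livers (adjusted p = 0.44 by limma).

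Beside the lower Cyp4a14 and Cyp4a31, 2 of 10 markers of hepatocytes near the central vein were also called lower. Of 10 pericentral markers, limma called 2 downwards (as for 0.279% of all genes) and 0 upwards. Of the 10, 3 had an unadjusted p under 0.05 (30%, against 9.55% of all genes), 7 had a log2 fold change below 0, and the median was -0.20. The glutamate transporter Slc1a2 fell to 1885 ± 356 in VPA_OCA livers, against 3072 ± 335 in VPA livers (SD, n = 6 each; adjusted p = 0.0161 by limma), and the ammonium transporter Rhbg to 94.4 ± 16.4 in VPA_OCA livers, against 155 ± 24.5 in VPA livers (adjusted p = 0.0333 by limma). The other 8 did not pass. Their log2 fold changes were -0.84 for Oat, -0.36 for Cyp2e1, -0.31 for Tbx3, -0.08 for Glul and -0.03 for Cyp1a2. They were above 0 for Lect2 (0.17), Axin2 (0.065) and Lgr5 (0.055). The summed list ranged from 78536 to 144977 in VPA_OCA livers and from 109016 to 202697 in VPA livers, and 0 of its markers were at 0 in all libraries. The part of these markers in the Cyp4a result was not tested.

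Among the other marker lists limma called 0 of 6 hepatocyte, 0 of 8 periportal, 0 of 5 sinusoidal endothelium, 0 of 5 Kupffer cell, 0 of 5 cholangiocyte, 0 of 4 adipocyte, 0 of 2 skeletal muscle and 0 of 1 kidney proximal tubule markers that could be tested. At an unadjusted p under 0.05 they held 1 periportal gene (Hal, higher) and 1 endothelial gene (Lyve1, lower). Summed periportal markers ranged from 166195 to 261627 in VPA_OCA livers and from 172855 to 266069 in VPA livers. Summed skeletal muscle markers ranged from 12.98 to 23.85 in VPA_OCA livers and from 5.27 to 591.5 in VPA livers. The kidney, which also expresses Cyp4a genes, was represented by a summed marker count of 2.164 to 21.78 in VPA_OCA livers and 2 to 11.59 in VPA livers, with its markers Kap and Umod listed at 0 in all libraries.

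The male-biased pair was near the limit of detection in these female livers. Cyp4a12a reached a normalized count of 1 in 1 of 6 VPA_OCA livers, with a value of 8.342 in VPA_OCA replicate 3, and in 4 of 6 VPA livers, at 3.008, 1.512, 70.14 and 2.108 in VPA replicates 1, 4, 5 and 6. Cyp4a12b reached 1 in 2 of 6 VPA_OCA livers, at 2.164 and 5.368 in VPA_OCA replicates 4 and 5, and in 2 of 6 VPA livers, at 1.511 and 14.03 in VPA replicates 4 and 5. Most of these values are worth a few reads, since 1 read was worth 0.559 to 1.23 normalized counts. In VPA replicate 4, where 1 read was worth 1.008, neither 1.512 nor 1.511 is a whole number of reads. Their sum, 3.023, is close to one, so these 2 values may not be separate detections. By an exact permutation test over the 12 libraries (2-sided, on log2(normalized count + 1)), the difference had a p of 0.273 for Cyp4a12a and 1 for Cyp4a12b. The smallest p possible in this test is 0.00216 for Cyp4a12a. It is larger for Cyp4a12b, whose 7 libraries at 0 are tied. In the authors' deposited table, which flags both genes as not present and gives them no adjusted p, Cyp4a12a had a log2 ratio of -0.87 (p = 0.0177) and Cyp4a12b of -0.12 (p = 0.509). The split of reads between the copies is uncertain in either source, with 48.9% and 49.4% of their windows of 50 bases shared.

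VPA replicate 5, which held the highest values of Cyp4a12a and Cyp4a12b, was also the highest of the 12 libraries in 4 of 8 tested male-biased liver genes and the lowest in 6 of 10 female-biased ones. The male-biased hydroxylase Cyp2d9 stood at 2808 normalized counts there, against 537.1 to 796.9 in VPA_OCA livers and 673.4 to 980.4 in the other VPA livers. The transporter Slco1a1 stood at 877.4, against 16.83 to 488.7 in VPA_OCA livers and 5.05 to 86.89 in the other VPA livers. The female-biased Cyp3a41a stood at 2189, against 24030 to 38300 in VPA_OCA livers and 36520 to 65090 in the other VPA livers. The sulfotransferase Sult2a1, also female-biased, stood at 183.4, against 4289 to 13110 in VPA_OCA livers and 4378 to 14610 in the other VPA livers. Other genes of these lists went another way. The female-biased Cyp2b9 was highest in VPA replicate 5, at 10460, against 5364 to 10420 in the other libraries. The male-biased Mup20, Elovl3, Selenbp2 and Cyp2u1 were highest in VPA_OCA libraries, and the female-biased Cyp2b13 (4130) and Acot3 (9017) lay within the range of the others.

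Among sex-linked genes, Xist, which is transcribed from the inactive X chromosome, ranged from 10740 to 16810 in VPA_OCA livers and from 8215 to 13410 in VPA livers, and the Y-linked Ddx3y and Eif2s3y reached at most 1.054. Other Y-linked genes had low counts in both groups: Kdm5d had 5.499 to 31.09 in VPA_OCA livers and 7.055 to 22.96 in VPA livers, and Uty had 1.131 to 12.05 in VPA_OCA livers and 0 to 5.835 in VPA livers. In VPA replicate 5 Xist stood at 11700, Kdm5d at 9.394 and Uty at 0, each within or below the range of the other libraries. Over all libraries, limma called 0 of 8 male-biased and 1 of 10 female-biased genes. The called gene was the female-biased P450 Cyp2b9, which fell to 6372 ± 721 in VPA_OCA livers, against 9553 ± 1062 in VPA livers (SD, n = 6 each; adjusted p = 0.0144 by limma). At an unadjusted p under 0.05 these lists held 3 genes each (37.5% of the male-biased and 30% of the female-biased genes, against 9.55% of all genes). Without VPA replicate 5, the log2 fold change was -1.62 for Cyp4a14 (adjusted p = 0.0297 by limma) and -1.25 for Cyp4a31 (adjusted p = 0.0125 by limma).

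**Figure D5:**
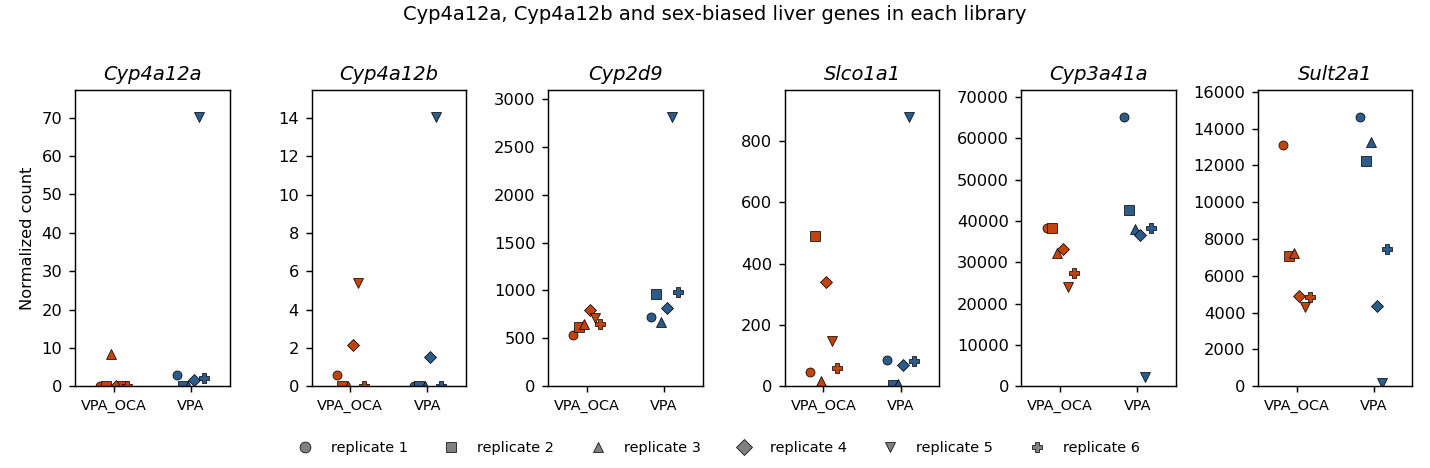
Normalized counts (vertical axes, linear, 1 per gene) of Cyp4a12a, Cyp4a12b, the male-biased Cyp2d9 and Slco1a1 and the female-biased Cyp3a41a and Sult2a1 in each VPA_OCA library (left) and VPA library (right), with a symbol for each replicate number. Of the genes shown, VPA replicate 5 is the highest library in the 4 male-biased ones, at 70.14 for Cyp4a12a. It is the lowest in the female-biased Cyp3a41a, at 2189, and Sult2a1, at 183.4.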

How the data were processed

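RNA sequencing of 12 mouse livers was read from the single table that covers the series. Per the labels' protocols, Trizol was used for RNA extraction and a TruSeq RNA kit for the libraries. The genome build GRCm38.p5 and the tool edgeR (version not stated) appear in the submitters' processing notes. The sources used here do not give the aligner, counter, annotation, read length or strand setting. The deposited values are normalized counts, a signal per gene, per the file headers. The deposited FPKM values, log2 ratio, p-values, GC fraction and gene length are the authors', per the file headers. Cells written with a decimal comma and an exponent exceeded the true value by a factor of 1000 and were divided by it, after which recomputed adjusted p-values differed from the authors' by at most 0.538%. Of low values (up to 20 times the worth of 1 read), 79.3% to 84.2% lay within 0.1 of a whole number of reads, so no count model was used, and limma took the place of the count test.

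The filter kept the 19006 genes that reached 1 normalized count in 6 or more libraries. Log2(value + 1) was fitted with limma (version 3.58.1, R 4.3.3) on group alone, with an intensity trend, and p-values were adjusted by Benjamini-Hochberg over all kept genes, with a threshold of 0.05. The fit was checked on simulated data with independent noise and no split by number set, so the check does not cover that split. Same-numbered libraries of the groups deviated together (correlation 0.123 to 0.466 over 11632 genes in the 6 pairs), but the labels give no meaning to the number. Only 3 of 12 libraries deviated most like their own number, and every best match lay in the same set, numbers 1 to 3 or 4 to 6. Pairing beyond this split was thus not shown, and the replicate block was run as an alternative only. Windows and coding sequences came from GENCODE M21 transcripts, aligned with mafft 7.526. Alternatives were other filters, scalings, pseudocounts and thresholds, FPKM, limma fitted with array weights or with no trend, a replicate block, a term for number sets, each set alone and libraries left out. Added after the data were seen were levels per longest transcript and the permutation test for Cyp4a12a and Cyp4a12b.

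The members, the 18 gene lists (7 of pathways, 11 of markers) and the tests were chosen with earlier results of these data known. Named are all members and other Cyp4a rows, up to 3 genes of a list by p or as examples, and, for each tested member, the 3 named genes with a mean of at least 20 whose log2 profile was most like it. Genes printed outside this rule, in the comparison of VPA replicate 5 and as pericentral, muscle and sex-linked markers, were chosen after their values were seen. Each library is 1 labelled sample, and nothing in the labels describes separate experiments, so p-values measure the spread between these samples.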

Additional observations from a re-analysis of the deposited data

Results flagged for a closer look

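In 62 groups of 6 values checked for a value far from the rest of its group, 8 stood out. The rule flags about 1 in 20 by chance only for independent, normally distributed values. The groups here share libraries, and some hold values mostly at or near 0, so the count cannot be set against that rate. For Cyp4a12a these were 8.342 normalized counts in VPA_OCA replicate 3 and 70.14 in VPA replicate 5, and for Cyp4a12b 14.03 in VPA replicate 5. The same VPA replicate 5 stood out for the male-biased genes Cyp2d9 (2808), Hsd3b5 (132) and Slco1a1 (877.4). VPA_OCA replicate 1 stood out for the female-biased Sult2a1 (13110), and VPA replicate 4 for Pla2g12a, with a low value of 155.2. No cause of these values was tested.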

How the results depend on the processing

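Cyp4a14 and Cyp4a31 kept a negative log2 fold change under all alternatives run, and Cyp4a10 and Cyp4a32 a negative one with no call. Cyp4a14 missed the threshold without an intensity trend in limma (-1.63, adjusted p = 0.0561) and in numbers 4 to 6 alone (-1.36, adjusted p = 0.279), and Cyp4a31 in numbers 4 to 6 alone (-0.749, adjusted p = 0.229). The members called, 2 in the main comparison, were 1 without the trend, 0 in numbers 4 to 6 alone and 1, Cyp4a31, at a threshold of 0.01. The 137 genes called became 210 with the replicate block, 404 with a term for number sets, 223 at a threshold of 0.10 and 62 at 0.01. The block, which treats same-numbered libraries as pairs, changed no member's call. With each library left out in turn, 92 to 146 genes and 2 members were called, the log2 fold change ran from -1.86 to -1.41 for Cyp4a14 (adjusted p 0.0017 to 0.0422), from -1.40 to -1.17 for Cyp4a31 (0.00105 to 0.0161), from -0.87 to -0.41 for Cyp4a10 (0.244 to 0.694) and from -0.45 to -0.24 for Cyp4a32 (0.278 to 0.545), and the ratio of family sums from 0.42 to 0.521. Where a call was lost, the cause was not tested. Numbers 1 to 3 alone called both Cyp4a14 (adjusted p = 0.0009 by limma) and Cyp4a31 (adjusted p = 0.000149 by limma). The SE of the log2 fold change was 0.191 in numbers 1 to 3 and 0.451 in numbers 4 to 6 for Cyp4a14. For Cyp4a31 it was 0.138 and 0.218. Depth limits Cyp4a12a and Cyp4a12b, whose values are mostly a few reads.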
